A study of Homo sapiens with 8 samples.

Results

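The data describe 8 genes of uracil excision and mismatch repair, UNG, TDG, SMUG1, MBD4, MSH3, MSH6, PMS2 and EXO1, out of 19856 protein-coding genes with an Ensembl canonical transcription start site (TSS). The genes were taken by name, and peaks were collected within 2 kb of the TSS, in the gene body and within 50 kb on either side of the gene. The study profiled histone H3 succinylated at lysine 23 (H3K23su) and acetylated at lysine 27 (H3K27ac) by CUT&Tag, in which an antibody directs a transposase to chromatin, with 50000 cells per library. The human colorectal cancer line HCT15, an established cell line, was studied as the parental line treated with DMSO (HCT15-Pa) and as a line resistant to 5-fluorouracil (HCT15-FR) treated with 5-fluorouracil at 20 μg/mL. According to the study's methods, HCT15-FR was kept in the drug and then grown without it for some days before experiments, so that the line and its drug exposure cannot be told apart. Each mark had 2 libraries per line, 8 in all, and nothing in the sources says that replicates were separate cultures, so that p-values measure only the spread between these samples.

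5-Fluorouracil is a pyrimidine analog that blocks thymidylate synthase and leads to uracil and fluorouracil in DNA. Uracil DNA glycosylases cut the base from the sugar, and base excision repair then restores the strand: UNG acts largely at replication forks, SMUG1 on single- and double-stranded DNA, and TDG and MBD4 on mispaired thymine or uracil opposite guanine. Mismatch repair recognises mispairs through MutS complexes, of which MSH3 and MSH6 are the alternative partners, nicks the new strand through MutL, to which PMS2 gives the endonuclease, and removes it with the exonuclease EXO1. HCT15 is known as a mismatch repair-deficient line that lacks functional MSH6, so a peak at its promoter is no measure of its protein. H3K27ac marks active promoters and enhancers, and H3K23su is a metabolically derived acylation of the same histone tail.

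Sequence is shown for the E2F-like matches, since all 4 mismatch repair members held one in the 300 bases from 250 upstream of the TSS and none of the 4 glycosylases did. The match was an exact TTTCCCGC, TTTGGCGC, TTTCGCGC or TTTGCCGC on either strand, which 4.37% of all 19856 promoters of that length held. The 30 bases around the match of MSH6, PMS2 and EXO1 are read on the strand of the gene from GRCh37, the assembly that hg19 names, with the match in capitals. They lie at chr2:48010276-48010305, chr7:6048762-6048791 and chr1:242011499-242011528, in that order, on the plus strand except for PMS2 on the minus strand.
MSH6: ctccccccagaTTTCCCGCcagcaggagcc
PMS2: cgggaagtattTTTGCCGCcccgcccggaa
EXO1: aaaggtcagccTTTCGCGCgctgtgtaggc
The match of PMS2 starts 100 bases before the TSS and shares bases with a GC box. In MSH6 and EXO1 the match starts at bases 4 and 5 of the transcript. A match describes the letters only, and no binding of a factor was measured.

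The promoters otherwise differed in composition. GC content over the same 300 bases ran from 52.7% in SMUG1 to 78% in MSH6, with a median of 63.7% over all promoters, and CpG dinucleotides from 13 in SMUG1 to 39 in MSH6, with a median of 23. The GC box, GGGCGG, occurred in 6 of 8 members against 61.5% of all promoters, with TDG and SMUG1 as the exceptions. CCAAT occurred in 6 of 8 against 36.0%, and MSH3 and EXO1 lacked it. The CRE, TGACGTCA, occurred in PMS2 and EXO1 against 2.68% of promoters, the ETS word CCGGAAG in SMUG1 against 14.2%, and the NRF1 word GCATGCGC in UNG against 4.27%. AP-1, TGACTCA or TGAGTCA, occurred in none of the 8 promoters and in 3.57% of all. All words were searched on both strands.

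The libraries held 65364 to 68365 peaks for H3K23su and 70600 to 76676 for H3K27ac, and 61.7% to 73.2% of the peaks of a library overlapped a peak of its replicate. Peaks were wider in HCT15-FR: they covered 39.7 ± 0.467 Mb against 33.3 ± 0.368 Mb in HCT15-Pa for H3K23su, and 46.5 ± 0.220 Mb against 39.2 ± 0.515 Mb for H3K27ac (SD, n = 2). The lists hold no read counts, the depth at peak calling is unknown, and where a peak is missing the mark could not be detected at the threshold of the peak calls. The labelled cell type was checked by the TSS windows of 8 intestinal epithelial markers, of which 4 had an H3K23su peak in all 4 libraries and 6 an H3K27ac peak. PTPRC and CD3E of leukocytes, COL1A2 of fibroblasts and ALB of hepatocytes had none, while COL1A1 of fibroblasts had a peak in 3 H3K23su and 4 H3K27ac libraries. With 2 libraries against 2 no difference can reach significance, the smallest exact permutation p being 0.333, so differences are given by whether the libraries of the lines overlap.

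A TSS-window peak was present in all 4 libraries of H3K23su at 7 of 8 members, with SMUG1 as the exception, where 55.2% of protein-coding genes had one. The same 7 members had an H3K27ac peak in all 4 libraries, against a background of 59.5%. The 7 promoters thus carried both marks in the parental and in the resistant line.

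**Figure D1:**
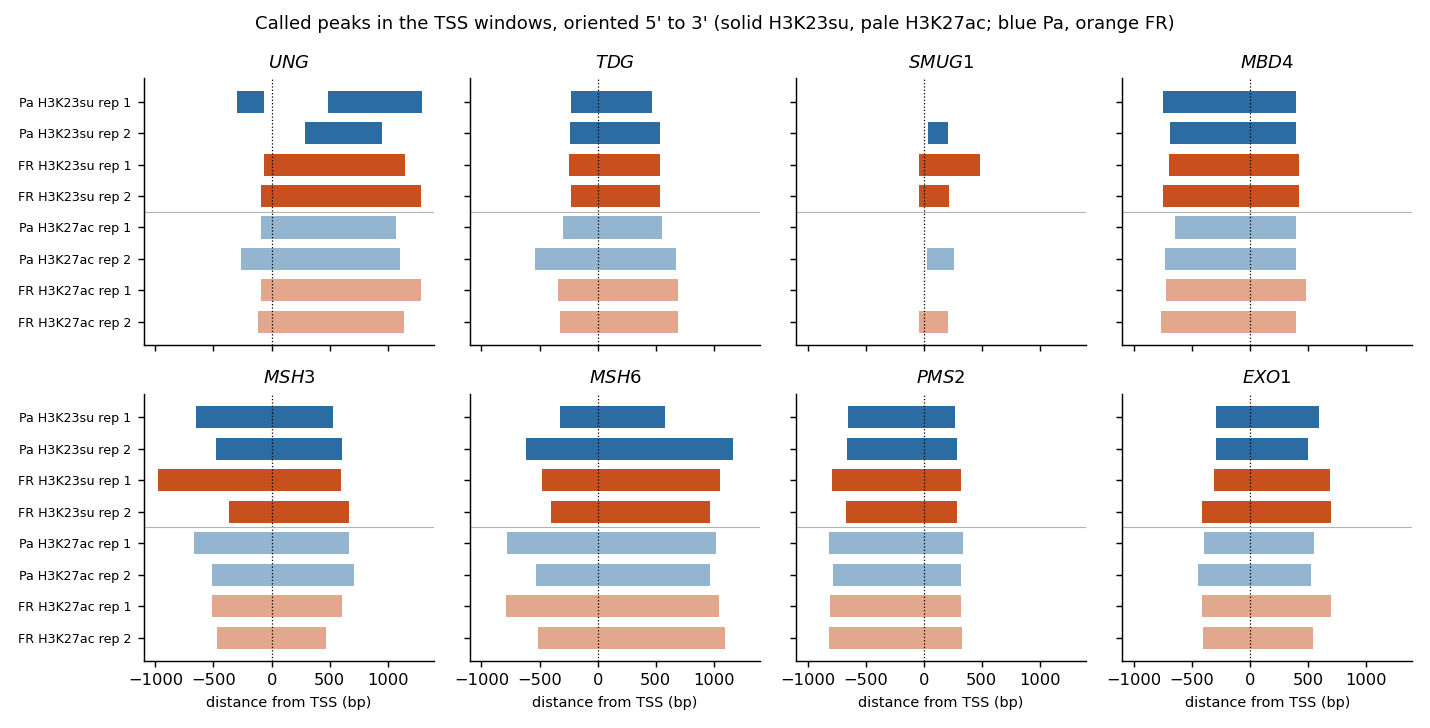
Called peaks around the TSS of each member, with distance from the TSS in bp in the direction of transcription on the horizontal axis and the 8 libraries in rows (H3K23su solid, H3K27ac pale, HCT15-Pa blue, HCT15-FR orange). Peaks span the TSS in all libraries of 6 members, the H3K23su peaks of UNG in HCT15-Pa leave it uncovered, and SMUG1 has short peaks in 3 of 4 H3K23su and 2 of 4 H3K27ac libraries. The H3K23su peak of SMUG1 in HCT15-Pa also leaves the TSS uncovered.

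UNG, at chr12:109535402-109564530 on the plus strand, encodes the main uracil DNA glycosylase in a mitochondrial and a nuclear form that start from separate promoters. Its other annotated protein-coding starts lie 521, 564 and 575 bp downstream of the canonical TSS. H3K23su covered 1042 and 662 bp of the window in HCT15-Pa replicates 1 and 2, and 1214 and 1379 bp in HCT15-FR. The lines did not overlap, with means of 852 ± 269 and 1296.5 ± 117 bp (SD, n = 2), and the exact permutation test gave p = 0.333, the smallest that 2 libraries against 2 allow.

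The position of the UNG peak also differed between the lines. In HCT15-Pa replicate 1 there were 2 separate peaks, from 301 to 69 bp before the TSS with a score of 3.12 and from 482 to 1290 bp after it with a score of 7.55, where the score is −log10 of the P value of the peak caller. In HCT15-Pa replicate 2 the peak ran from 288 to 949 bp after the TSS. Both left the canonical TSS uncovered and lay over the downstream starts. In HCT15-FR the peak began 64 and 93 bp before the TSS and ended 1149 and 1285 bp after it, so that it covered both sets of starts. H3K27ac covered the canonical TSS of UNG in all 4 libraries, over 1162 and 1371 bp in HCT15-Pa and 1377 and 1264 bp in HCT15-FR, and those values overlapped.

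TDG, at chr12:104359600-104382652 on the plus strand, encodes the thymine DNA glycosylase, which also removes oxidised methylcytosine. Its H3K23su peak was narrow and strong. It covered 696 and 772 bp in HCT15-Pa and 781 and 767 bp in HCT15-FR, a mean of 754 ± 39.1 bp (SD, n = 4), which lay at the 16.1th percentile of genes with a peak in all 4 libraries. Its scores were 10.2 and 12.3 in HCT15-Pa and 16.1 and 17.5 in HCT15-FR. Ranked within its own list the TDG peak stood above 98.9% to 99.9% of peaks, which placed TDG at the 99.3th percentile of those genes. H3K27ac at TDG covered 855 and 1210 bp in HCT15-Pa and 1029 and 1017 bp in HCT15-FR, with no separation of the lines.

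MBD4, at chr3:129149790-129159022 on the minus strand, encodes a glycosylase with a methyl-CpG binding domain. It shares its promoter with IFT122, a component of intraflagellar transport, in the opposite direction. H3K23su covered 1145 and 1080 bp in HCT15-Pa and 1118 and 1174 bp in HCT15-FR, which overlapped. H3K27ac covered 1037 and 1127 bp in HCT15-Pa and 1202 and 1160 bp in HCT15-FR, so that MBD4 alone among the members had H3K27ac coverage above HCT15-Pa in both HCT15-FR libraries, by 99 bp in the mean.

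SMUG1, at chr12:54515061-54582792 on the minus strand, encodes the single-strand-selective monofunctional uracil glycosylase and had the least of both marks. H3K23su covered 0 and 177 bp in HCT15-Pa and 527 and 254 bp in HCT15-FR, with scores of 4.74, 5.33 and 5.53 in the 3 libraries with a peak. H3K27ac covered 0 and 226 bp in HCT15-Pa and 0 and 243 bp in HCT15-FR, so that replicate 2 of each line had a short peak and replicate 1 had none. The H3K23su values did not overlap between lines, although 1 parental library was at 0. Its 12 other annotated protein-coding starts lie within 378 bp of the canonical TSS and so inside the same window.

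MSH3, at chr5:79950471-80172634 on the plus strand, encodes the MutS partner that handles larger insertion and deletion loops. H3K23su covered 1184 and 1088 bp in HCT15-Pa and 1568 and 1035 bp in HCT15-FR, which overlapped. H3K27ac covered 1331 and 1219 bp in HCT15-Pa and 1119 and 943 bp in HCT15-FR. MSH3 was the only member with lower coverage of H3K27ac in both HCT15-FR libraries, by a mean of −244 bp. The scores of these peaks were not lower there, with 8.37 and 7.36 in HCT15-Pa and 9.02 and 9.35 in HCT15-FR. Ranked within their own lists, the peaks of the lines overlapped.

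MSH6, at chr2:47922669-48037202 on the plus strand, encodes the MutS partner for single mispairs and had the widest peaks. H3K23su covered 899 and 1777 bp in HCT15-Pa and 1534 and 1366 bp in HCT15-FR. H3K27ac covered 1797 and 1498 bp in HCT15-Pa and 1834 and 1607 bp in HCT15-FR. Neither mark separated the lines, and the 2 parental H3K23su libraries lay on either side of both HCT15-FR libraries. The mean over 4 libraries was 1394 ± 371 bp for H3K23su and 1684 ± 159 bp for H3K27ac, the 74.6th and 86.1th percentiles of genes with the peak in all 4 libraries.

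PMS2, at chr7:6010556-6048761 on the minus strand, encodes the endonuclease subunit of MutL and shares its promoter with AIMP2, a scaffold of the tRNA synthetase complex. H3K23su covered 918 and 946 bp in HCT15-Pa and 1107 and 954 bp in HCT15-FR. The lines did not overlap, but HCT15-FR replicate 2 at 954 bp was close to the higher parental library at 946 bp. H3K27ac varied little, with 1151 and 1097 bp in HCT15-Pa and 1125 and 1139 bp in HCT15-FR. The PMS2 TSS region aligned over 1147 bp to another site on chromosome 7 at 86.1% identity, and the part of this copy in the values was not tested.

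EXO1, at chr1:242011269-242058450 on the plus strand, encodes the exonuclease that removes the nicked strand. H3K23su covered 883 and 793 bp in HCT15-Pa and 998 and 1112 bp in HCT15-FR, with means of 838 ± 63.6 and 1055 ± 80.6 bp (SD, n = 2). Both HCT15-FR libraries lay above both parental ones. H3K27ac covered 945 and 967 bp in HCT15-Pa and 1112 and 941 bp in HCT15-FR, and overlapped.

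**Figure D2:**
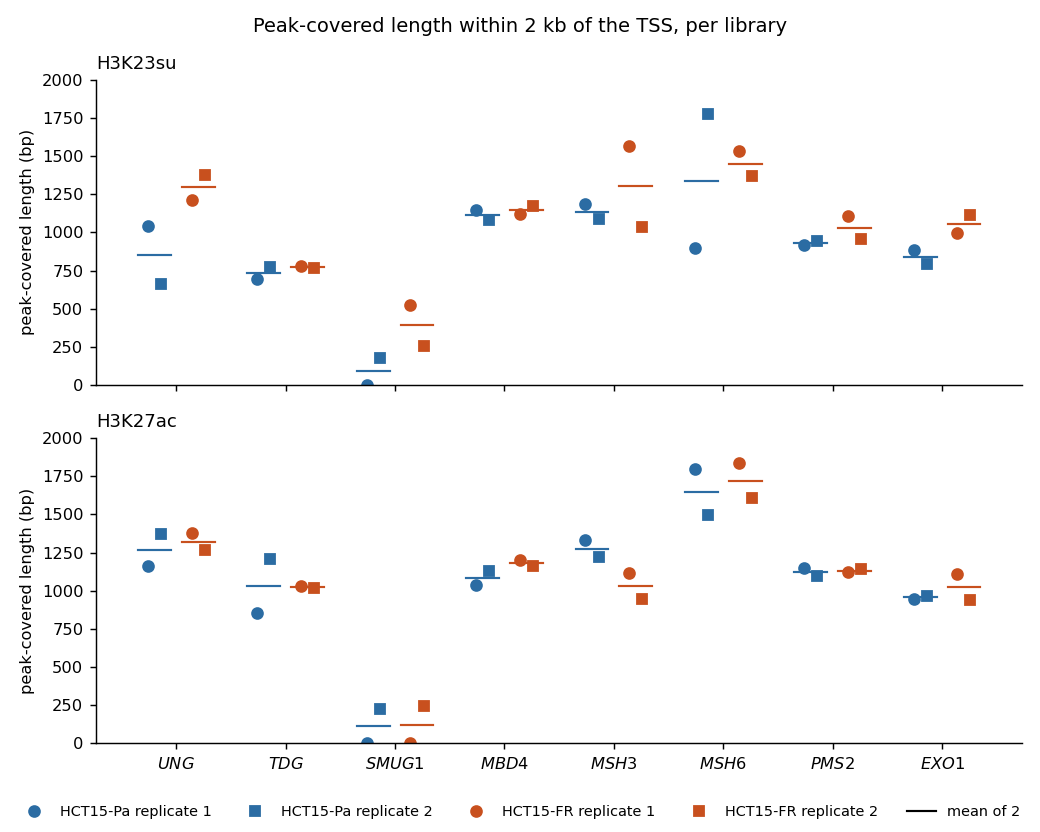
Peak-covered length in bp within 2 kb of the TSS (vertical axis) for each member (horizontal axis), H3K23su above and H3K27ac below, with a point per library and a line at the mean of 2 libraries. H3K23su points of UNG, SMUG1, PMS2 and EXO1 lie higher in HCT15-FR without overlap, and H3K27ac points of MSH3 lie lower.

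Over the 8 members, H3K23su coverage was higher in HCT15-FR without overlap at 4 (UNG, SMUG1, PMS2 and EXO1), where 43.2% of the 13301 genes with a TSS-window peak in any library were, and lower at 0, where 8.31% were. The 4 of 8 is thus near the share of all genes. All 8 means were higher in HCT15-FR, as were those of 74.0% of all genes tested, and the median difference was 138.75 bp at the members and 149.5 bp at all genes tested. The difference at the members was therefore no larger than that of the genes as a whole. For H3K27ac, 1 member was higher (MBD4), with a background of 31.4%, and 1 was lower (MSH3), with a background of 12.8%. The median difference was 31.25 bp at the members and 59.5 bp at all genes tested.

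The score of the strongest TSS-window peak was also ranked among all peaks of its own list. For H3K23su, the strongest TSS-window peak ranked higher in HCT15-FR without overlap at 2 of 7 members, TDG and MBD4, with a background of 28.4%, and lower at 1, MSH3, with a background of 15.6%. For H3K27ac it ranked higher at the same 2 members, TDG and MBD4, with a background of 22.1%, and lower at none, with a background of 28.2%. The counts of higher members were near the background. The differences of TDG and MBD4 were small, and their peaks stood near the top of the lists in HCT15-Pa already.

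The mean percentile of the TDG peak was 99.2 in HCT15-Pa and 99.8 in HCT15-FR for H3K23su, and 96.8 and 98.2 for H3K27ac. The H3K23su scores of MBD4 were 8.39 and 9.29 in HCT15-Pa and 12.04 and 11.1 in HCT15-FR, and the mean percentiles were 97.6 and 98.5. For H3K27ac the scores of MBD4 were 11.2 and 11.6 in HCT15-Pa and 14.7 and 15.7 in HCT15-FR, and the mean percentiles were 93.9 and 95.6. MSH3 went the other way for H3K23su, with percentiles of 80.8 and 75.8 in HCT15-Pa and 49.9 and 74.0 in HCT15-FR. HCT15-FR replicate 1 carried most of that difference.

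**Figure D3:**
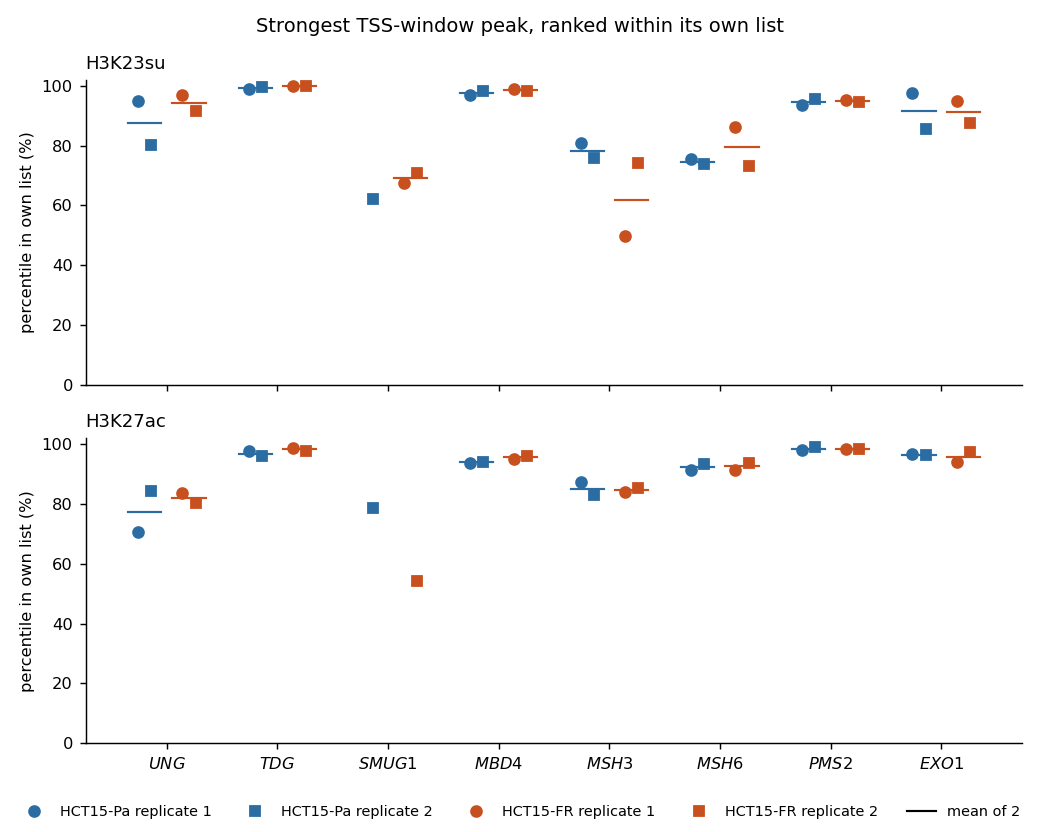
Percentile of the strongest TSS-window peak among the scores of its own list (vertical axis, in percent) for each member, H3K23su above and H3K27ac below, with a point per library and a line at the mean where both libraries of a line have a peak. TDG stands at 98.9 or more for H3K23su, and MSH3 spreads from 49.9 to 80.8.

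The order of the members by rank differed between the marks. Peaks were called with the broad option for H3K27ac and not for H3K23su, so ranks in the marks may not be like measures. The part of the calling mode in the order was not tested. For H3K23su, the mean percentile over 4 libraries ran from TDG at 99.5 ± 0.459 and MBD4 at 98.1 ± 0.783 through PMS2 at 94.7 ± 0.760, EXO1 at 91.4 ± 5.74 and UNG at 90.8 ± 7.47 to MSH6 at 77.1 ± 6.09 and MSH3 at 70.1 ± 13.8 (SD, n = 4). Neighbours in this order overlapped in their libraries, except MBD4, which was at 97.0 or more, and PMS2, which was at 95.4 or less. For H3K27ac, PMS2 led at 98.5 ± 0.381, followed by TDG at 97.5 ± 1.12, EXO1 at 96.1 ± 1.44, MBD4 at 94.7 ± 1.12, MSH6 at 92.4 ± 1.22, MSH3 at 84.8 ± 1.93 and UNG at 79.7 ± 6.34. Neighbours overlapped except MBD4 and MSH6, by a narrow gap, and MSH6 and MSH3. UNG, the main uracil glycosylase, had the lowest mean rank for H3K27ac among the 7, at the 30.5th percentile of genes with the peak in all 4 libraries.

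In the gene bodies, outside the TSS window, H3K23su was higher in HCT15-FR at 0 of 8 members, with a background of 21.8%, and lower at 2, UNG and SMUG1, with a background of 9.47%. UNG had 216 and 232 bp in HCT15-Pa and 0 in both HCT15-FR libraries, but the parental values came from separate peaks of 1 library each, at 8.38 and 24.1 kb from the TSS, so the replicates shared no site. SMUG1 had 597 and 1242 bp in HCT15-Pa and 425 and 276 bp in HCT15-FR. The SMUG1 values also included parental peaks of 1 library each, of 275, 513 and 301 bp, and the only body region of SMUG1 in all 4 libraries overlapped between the lines, with 322 and 428 bp in HCT15-Pa and 425 and 276 bp in HCT15-FR. Neither count thus rests on a region found in both parental libraries and differing between the lines, and within the bounds of the canonical transcripts 0 members were lower. H3K27ac was higher at 2, MSH3 and EXO1, with a background of 25.4%, and lower at 0, with a background of 8.6%. MSH3 had 2082 and 2413 bp in HCT15-Pa and 3047 and 2604 bp in HCT15-FR, and EXO1 351 and 686 bp in HCT15-Pa and 1078 and 1081 bp in HCT15-FR.

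In both genes 1 intronic region, singled out after the values were seen, differed by more than the whole gene body did. In MSH3 the region at chr5:79963370-79964720, centred 13.6 kb into the gene, was covered over 452 and 242 bp in HCT15-Pa and 1206 and 1126 bp in HCT15-FR. In EXO1 the region at chr1:242017950-242019089, centred 7.01 kb from the TSS, was covered over 351 and 407 bp in HCT15-Pa and 1078 and 853 bp in HCT15-FR. Both regions had an H3K27ac peak in all 4 libraries and were wider in HCT15-FR without overlap, but their scores were not higher there. H3K27ac peaks were called with the broad option, and how the width of a call bears on its score was not tested. The scores of the MSH3 region were 6.03 and 4.29 in HCT15-Pa and lower, 3.43 and 4.12, in HCT15-FR, and those of the EXO1 region overlapped, with 4.94 and 4.76 in HCT15-Pa and 3.80 and 6.12 in HCT15-FR. The EXO1 region aligned to a site on chromosome 5 at 85.9% identity over 97.5% of its length.

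In the flanks, H3K23su was higher in HCT15-FR at 3 members, TDG, MBD4 and MSH3, and H3K27ac at 4, UNG, MBD4, MSH6 and EXO1, each with a background of 42%. It was lower at 0 for both marks, with backgrounds of 12.2% and 12.9%. Several of these calls rest on few regions or on neighbours. The TDG flank had 3142 and 3722 bp of H3K23su in HCT15-Pa and 3926 and 3992 bp in HCT15-FR, of which 2703 and 3085 bp against 3496 and 3634 bp lay under the TSS windows of HSP90B1 and UQCC6, and the rest was 439 and 637 bp against 430 and 358 bp. The MSH3 call rests on a region not reported here, and its only flank region in all 4 libraries overlapped between the lines, with 576 and 231 bp in HCT15-Pa and 517 and 516 bp in HCT15-FR. For H3K27ac, the mean differences of MSH6 and EXO1 became −97.5 and −45.5 bp, the opposite direction, when only the higher-scoring 50% of peaks per library were used. The upstream flank regions of MSH6 lay at −134 and −129 kb from its canonical TSS, since the gene record extends beyond another annotated start at −87326 bp.

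MBD4 had the largest difference in both marks. H3K23su covered 2408 and 2134 bp of its flanks in HCT15-Pa and 4025 and 3759 bp in HCT15-FR, and H3K27ac 2809 and 2271 bp in HCT15-Pa and 5785 and 5174 bp in HCT15-FR.

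Most of the MBD4 flank lay outside the TSS windows of neighbouring genes. A region in an intron of EFCAB12, centred 26.1 kb downstream of the MBD4 TSS at chr3:129132028-129133264 for H3K23su, was covered over 146 and 0 bp in HCT15-Pa and 1121 and 973 bp in HCT15-FR. The overlapping H3K27ac region at chr3:129132195-129133552 was covered over 146 and 0 bp in HCT15-Pa and 1028 and 1213 bp in HCT15-FR. This site was chosen after its values were seen, and it was wider in HCT15-FR in both marks. A further H3K27ac region at chr3:129117435-129119167 was covered over 1094 and 973 bp in HCT15-Pa and 1728 and 1686 bp in HCT15-FR. The H3K27ac flank of UNG had 3319 and 2842 bp in HCT15-Pa and 4423 and 4271 bp in HCT15-FR, of which 1243 and 1123 bp in HCT15-Pa and 1957 and 1855 bp in HCT15-FR lay under the TSS windows of USP30 and ALKBH2, the latter an alkylation repair enzyme.

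For each mark, overlapping or adjoining peaks were joined across its 4 libraries into regions, and the loci, each a gene with 50 kb on either side, held 100 regions for H3K23su and 97 for H3K27ac. For H3K23su, 26 were in all 4 libraries, and 44 in 1 library. For H3K27ac, 24 were in all 4 and 53 in 1. Regions called in the 2 HCT15-FR libraries but in none of HCT15-Pa (FR-only) made up 6 of 100 for H3K23su, where 7.95% of all regions in the genome were FR-only, and 5 of 97, or 5.15%, for H3K27ac, where 9.08% were. The reverse class (Pa-only) made up 7 of 100, against 5.01%, and 4 of 97, or 4.12%, against 4.53%. FR-only regions were thus no more frequent in these loci than elsewhere.

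**Figure D4:**
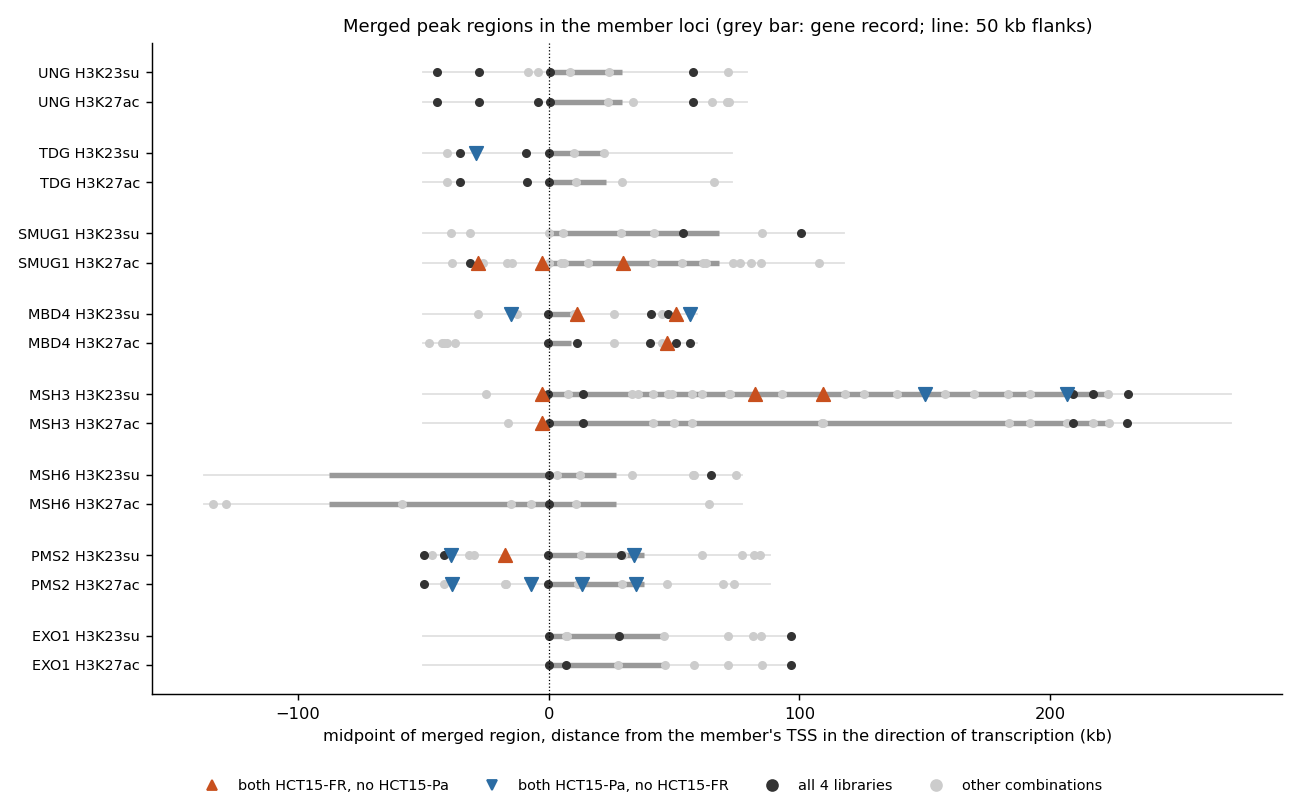
Merged regions in the 8 loci, with the distance of the region's midpoint from the member's TSS in kb in the direction of transcription on the horizontal axis and a row per member and mark. Upward triangles mark FR-only regions, downward triangles Pa-only regions, black points regions in all 4 libraries and grey points other combinations, and UNG, MSH6 and EXO1 have no triangle.

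The loci held 7 to 30 regions per mark, so the counts per locus are small and follow in part from that number. UNG, MSH6 and EXO1 had no FR-only or Pa-only region in either mark, among 8 to 10 regions per mark. MSH3 had 3 FR-only and 2 Pa-only of 30 regions for H3K23su, and 1 FR-only of 16 for H3K27ac. The H3K23su shares of MSH3, 10% and 6.67%, were near those of the genome, 7.95% and 5.01%. MBD4 had 2 FR-only and 2 Pa-only of 12 regions for H3K23su and 1 FR-only of 13 for H3K27ac. TDG had 1 Pa-only of 7 regions for H3K23su. SMUG1 had 3 FR-only regions, all of them among 21 for H3K27ac and outside its canonical transcript, with scores from 3.06 to 5.63. PMS2 had 4 Pa-only of 14 regions for H3K27ac, and 1 FR-only and 2 Pa-only of 16 for H3K23su. None of the FR-only or Pa-only regions overlapped a member's TSS window, and of the H3K23su ones 1 lay within 2 kb of a TSS, that of EFCAB12.

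Of these regions, 1 FR-only site, in the MSH3 locus, and 2 Pa-only sites had the same class in both marks, and the sequence of the Pa-only sites is shown for that reason. Across the genome, the same held for 35.8% of H3K23su regions in the FR-only class and for 19.8% in the Pa-only class.

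The Pa-only sites with both marks lay at PMS2. The first is in a PMS2 intron at chr7:6014234-6014763 for H3K23su, with scores of 5.33 and 5.72, and at chr7:6013765-6014352 for H3K27ac, with scores of 3.23 and 3.89. The second is in an intron of EIF2AK1, the haem-regulated kinase gene, at chr7:6087376-6087800 for H3K23su, with scores of 3.95 and 3.54, and at chr7:6087289-6087576 for H3K27ac, with scores of 3.47 and 3.24. The shared intervals, chr7:6014234-6014352 and chr7:6087376-6087576 on the plus strand, hold an AP-1 word (capitals) and no searched word, respectively. In the genome, 9.07% of Pa-only H3K23su regions and 10.7% of Pa-only H3K27ac regions held an AP-1 word in the 300 bases about their midpoint. The regions of the first site, chr7:6014234-6014763 and chr7:6013765-6014352, held none in those 300 bases. A further Pa-only H3K27ac region in a PMS2 intron, chr7:6035012-6035795, held 1.
PMS2 Pa-only site, PMS2 intron: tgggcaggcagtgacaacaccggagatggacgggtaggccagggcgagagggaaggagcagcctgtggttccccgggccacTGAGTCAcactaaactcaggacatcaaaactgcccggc
PMS2 Pa-only site, EIF2AK1 intron: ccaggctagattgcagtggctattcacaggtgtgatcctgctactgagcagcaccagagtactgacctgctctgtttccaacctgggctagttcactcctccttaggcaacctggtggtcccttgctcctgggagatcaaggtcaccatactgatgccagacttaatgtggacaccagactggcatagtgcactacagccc
The PMS2 intron has another copy on the same chromosome, at chr7:6789289-6789818, which was identical over all 530 bp of the H3K23su region, and at chr7:6789700-6790288 with 99.8% identity for H3K27ac. The copy had a peak of each mark in both HCT15-Pa and both HCT15-FR libraries. The H3K27ac region at chr7:6019122-6019952 in the same gene, covered over 0 and 365 bp in HCT15-Pa and 796 and 831 bp in HCT15-FR, had a copy at 98.8% identity, and the part of these copies in the values was not tested.

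The MBD4 flank held duplicated sequence as well. The FR-only H3K23su region at chr3:129107644-129108048 had a copy of 98.8% identity at chr3:129213833-129214240, which had an H3K23su peak in 1 of 2 HCT15-Pa and in both HCT15-FR libraries. The FR-only H3K27ac region at chr3:129111270-129111759 had a copy of 98.6% identity with a peak in 0 of 2 HCT15-Pa and 2 of 2 HCT15-FR libraries. Both FR-only H3K23su regions of MBD4 overlapped H3K27ac regions present in all 4 libraries. The best alignments of the EFCAB12 intron site described above had 86.3% and 87.8% identity over part of its length. Without the regions that had another copy of at least 90% identity over at least 90% of their length, 4 FR-only and 6 Pa-only regions remained for H3K23su and 3 and 3 for H3K27ac.

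The other 41 base excision and mismatch repair genes were read for comparison. A TSS-window peak was present in all 4 libraries at 37 for H3K23su, all but MSH4, MSH5, PARP1 and RPA3, and at 38 for H3K27ac, all but MSH4, MSH5 and RPA3, against 55.2% and 59.5% of all protein-coding genes. MSH4 and MSH5 encode the meiotic MutS proteins, and SMUG1 was closest in its covered lengths to MSH5 and RPA3. PARP1, the sensor of strand breaks, had 0 bp of H3K23su in both HCT15-Pa libraries and 431 and 560 bp in HCT15-FR. H3K23su coverage was higher without overlap at 23 of 41 and lower at 2, MSH4 and PCNA, with backgrounds of 43.2% and 8.31%. H3K27ac coverage was higher at 11 and lower at 2, LIG3 and POLB, with backgrounds of 31.4% and 12.8%. PCNA, LIG3 and POLB were named there after their values were seen. RPA3, a subunit of the single-strand binding complex, was at 0 in the window of its canonical TSS in all 8 libraries. Other annotated starts of the 41 genes were not examined, so a 0 describes that window only.

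The likeness of pathway genes to each member was measured by the mean absolute difference of TSS-window coverage over the 8 libraries. MBD4 was closest to RFC3 at 70.9 bp and POLD3 at 92 bp, EXO1 to RFC4 at 73.6 bp and POLD3 at 84.8 bp, and PMS2 to POLD3 at 91 bp and RFC3 at 92.4 bp. RFC3 and RFC4 belong to the clamp loader and POLD3 to polymerase delta. UNG was closest to APEX1, the abasic site endonuclease that acts after it, at 109.25 bp, and to the flap endonuclease FEN1 at 128.75 bp. TDG was closest to RPA2 at 126.75 bp and RFC4 at 143 bp, MSH3 to LIG3 at 130 bp and RFC3 at 153 bp, and MSH6 to SETD2 at 251 bp and RPA1 at 257 bp.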

How the data were processed

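CUT&Tag for H3K23su and H3K27ac was carried out on HCT15-Pa and HCT15-FR, with 2 libraries per line and mark. The authors used Bowtie2 against hg19, removed duplicate, secondary and unmapped reads with SAMtools so that proper pairs with a unique position remained, and ran MACS2 on each library alone, with the broad option for H3K27ac. Each deposited list holds peak positions, names and a score, which is −log10 of the MACS2 P value. The lists carry no counts, so covered length in bp served as the level, and it depends on the depth and on the breadth of each list.

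Genes came from GENCODE release 44 on GRCh37, with the start of the Ensembl canonical transcript as TSS. Peaks were joined to windows with at least 1 bp of overlap. Libraries were grouped by the sample labels. Values were compared by two-sided exact permutation tests, 62 for the members, of which 22 reached the smallest p, 0.333. Counts over all genes or regions were given as background. Copies were searched with blastn 2.17.0. The members and gene lists were chosen with earlier results of these data known. All 8 members were named, with the pathway genes that lack a TSS-window peak in all 4 libraries of a mark, the 2 pathway genes nearest to each member in coverage, and neighbours whose TSS lies within 2 kb of a peak. Coverage, classes and motif search were tested on simulated data. Alternatives were other TSS windows and list filters, other merging and flanks, each library left out, and the replicate numbers as a block. Other copies of regions were examined after seeing the data, as were the alternatives for gene bodies and flanks. Python 3.11.15, numpy 2.4.6, scipy 1.17.1, pysam 0.24.0 and matplotlib 3.10.9 were used. An item in the MSH3 locus is not reported here.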

Additional observations from a re-analysis of the deposited data

How the results depend on the processing

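Of 198 counts recomputed under an alternative, 141 stayed within 1.5 times the reported count and 57 moved. With the stronger 50% of each list, H3K23su had 1 member lower in the TSS window, 1 FR-only and 3 Pa-only regions and 1 member lower in the gene body, and H3K27ac had 3 FR-only and 1 Pa-only region and 1 member lower in the flanks. The flank differences of MSH6 and EXO1 for H3K27ac then changed sign, to −97.5 and −45.5 bp, while 117 of 119 recomputed member differences did not change sign, 1 of which became 0. With a common minimum score, 1 member was lower in the H3K27ac flanks. With a 5 kb TSS window, 4 members were higher and 0 lower for H3K27ac. With 20 kb flanks there were 4 Pa-only H3K23su and 3 FR-only H3K27ac regions, and with regions whose nearest TSS is a member's there were 1 FR-only and 0 Pa-only H3K23su regions and 1 Pa-only H3K27ac region. Requiring 50% of a region to be covered gave 12 FR-only H3K27ac regions, and leaving out regions with another copy gave 3. Within canonical transcript bounds, H3K23su had 0 members lower in the body and 3 lower in the flanks, and H3K27ac had 1 lower in the body and 2 higher in the flanks.

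Leaving out each library in turn, H3K23su gave 0 to 1 members lower in the TSS window, 9 to 18 FR-only and 9 to 22 Pa-only regions, 0 to 1 members higher and 2 to 6 lower in the body, and 4 to 5 higher and 0 to 2 lower in the flanks. H3K27ac gave 2 to 4 members higher and 1 to 2 lower in the TSS window, 7 to 21 FR-only and 4 to 17 Pa-only regions, 2 to 4 members higher and 0 to 2 lower in the body, and 0 to 1 lower in the flanks. The most FR-only regions came without HCT15-FR replicate 1, 18 and 21, and the most Pa-only regions without HCT15-Pa replicate 1, 22 and 17, with 17 for H3K27ac also without HCT15-Pa replicate 2. A region then needs fewer libraries to count, by construction. For the other moves the cause was not tested.

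With the replicate block, which counts a member when both equally numbered pairs differ in the same direction, 2 members were higher in the TSS window and 1 lower in the gene body for H3K27ac, and the other counts stayed within 1.5 times. Differences between replicates 1 and 2 correlated between the lines at 0.00213 over 13301 genes for H3K23su and −0.00564 over 14680 genes for H3K27ac. Covered lengths thus showed no pairing by number, but this cannot tell whether equally numbered libraries were handled together. The depth at peak calling is not in the lists, which limits every statement on a missing peak.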
